A study of Mus musculus with 6 samples.

Results

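The genes described here are 10 surface proteins by which adipocyte progenitors and their subsets are recognised: Pdgfra, Pdgfrb, Ly6a, Cd34, Cd24a, F3, Dpp4, Pi16, Thy1 and Cd81. They were chosen by symbol from a table of 24197 genes, all 10 were found in it, and 8 passed the filter on low counts. The libraries were made from polyadenylated RNA of stromal-vascular cells, the non-adipocyte cells of fat, taken from inguinal adipose tissue of C57BL/6 mice. The Prdm16 group (3 libraries) had received a Prdm16 retrovirus and the puro group (3 libraries) a control (puro) retrovirus. Cells were in standard growth medium, with no inducer of fat cell formation named. The labels give no age or sex, and they do not say how long the cells were in culture, whether they had been passaged or were an established line, or whether replicates came from separate animals or cultures, so a p-value here speaks of variation among 6 libraries that could be technical. The question the design poses is how forced expression of Prdm16, a zinc-finger transcriptional regulator of brown and beige adipocytes, changes gene expression in such cells.

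Adipocyte progenitors of mouse fat are stromal cells that lack blood and endothelial surface proteins and carry the platelet-derived growth factor receptors PDGFRα and PDGFRβ, the GPI-anchored antigen SCA-1 (gene Ly6a), the sialomucin CD34 and the GPI-anchored glycoprotein THY1. In the mouse inguinal depot an early, interstitial subset is known by DPP4, a dipeptidyl peptidase, and PI16, and the small sialoglycoprotein CD24 has also been used to sort early progenitors. A committed subset is known by ICAM1 and the onset of adipocyte genes, and another subset by CD142, the coagulation receptor tissue factor encoded by F3. The tetraspanin CD81 has been used to mark progenitors of beige adipocytes. No member of the set is a defining marker of the committed subset, which is described below from companion genes.

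Library totals were 28169059 to 34349660 counts in the Prdm16 group and 31866630 to 35798201 in the puro group. Levels are given as CPM, counts per 1000000 counts of the library after TMM adjustment of its total. The limit set by a count of 0, taken as 3 counts, corresponded to 0.0852 to 0.104 CPM per library. The delivered gene, Prdm16, had 98437, 72525 and 89054 counts in the Prdm16 libraries, against 14, 22 and 25 in the puro libraries. Log2 fold changes are Prdm16 over puro ± SE, and adjusted p-values are from the quasi-likelihood test of edgeR, adjusted by Benjamini-Hochberg over the 13805 genes tested.

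The markers did not move together. Cd24a, Ly6a and Cd81 rose in the Prdm16 libraries. Pdgfrb, Cd34, Thy1 and F3 fell, and Pdgfra did not pass the test. Dpp4 and Pi16 were too low to be tested. The 7 called of 8 tested stand beside 75.6% of all tested genes called in this comparison, the 3 higher beside 37.5% and the 4 lower beside 38.0%, so the share of called markers is near the background and is not a result about these genes. The library ranges of the 2 groups did not overlap for the same 7, beside 77.6% of all tested genes. The median log2 fold change of the 8 was −0.79, beside −0.01 over all tested genes. In bulk RNA, fewer cells of a type and less RNA per cell cannot be told apart.

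**Figure D1:**
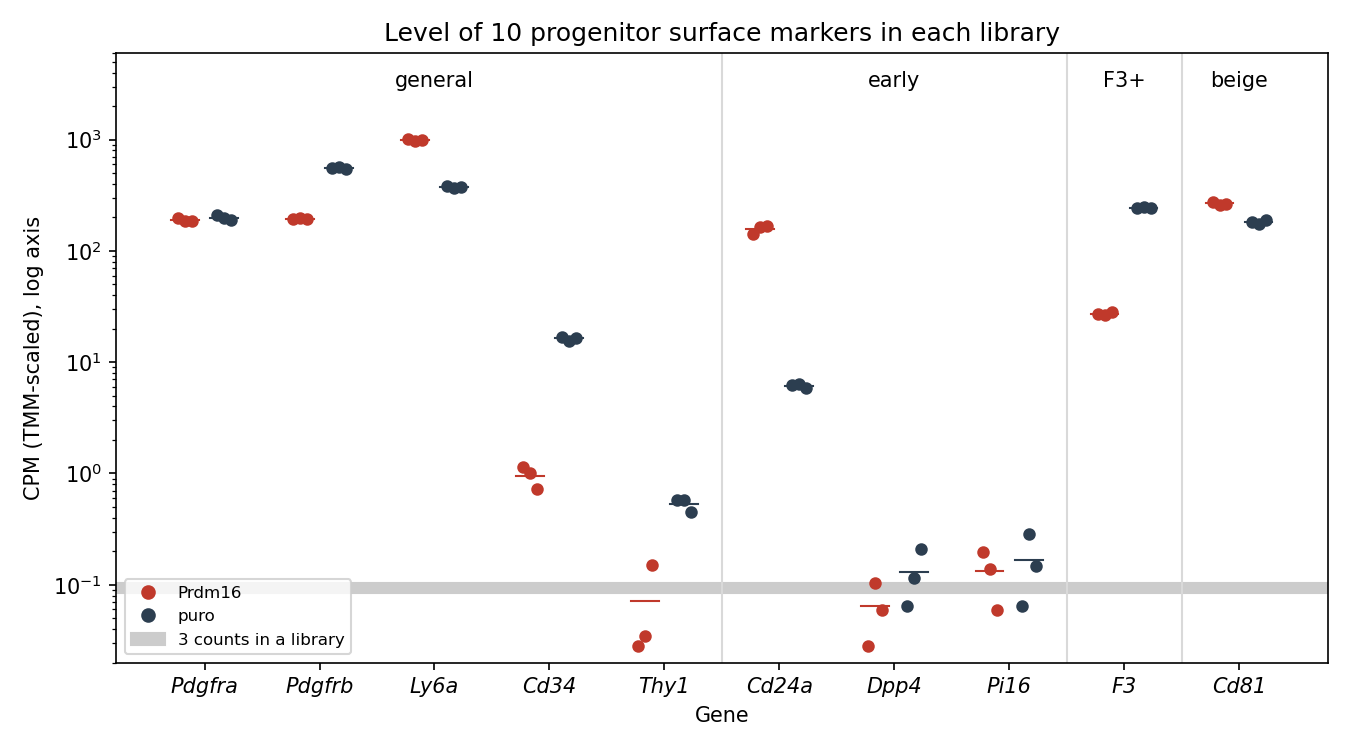
Level of each of the 10 markers in every library, as TMM-scaled CPM on a log axis, with a line at the mean of 3 libraries and a grey band where 3 counts lie. Ly6a, Cd24a and Cd81 are higher and Pdgfrb, Cd34, Thy1 and F3 lower in the Prdm16 libraries with no overlap, the ranges of Pdgfra overlap, and Dpp4 and Pi16 lie around the band in both groups.

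Among the general markers the 2 PDGF receptors differed in their response. Pdgfra, the receptor for PDGF-A and other PDGF dimers and the usual stromal progenitor marker of fat, had 196, 185 and 184 CPM in the Prdm16 libraries, against 209, 197 and 191 CPM in the puro libraries. The ranges of the groups overlapped. Its log2 fold change was −0.08 ± 0.04, with a 95% interval from −0.18 to 0.02 and an adjusted p of 0.116. It passed without puro replicate 3 (−0.11, adjusted p = 0.0335), and when the median log2 fold change of its chromosome was removed (−0.26, adjusted p = 0.000248). Across all 16 alternatives the value lay between −0.26 and −0.04 and the adjusted p between 0.000248 and 0.403.

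Pdgfrb, the receptor for PDGF-B shared by progenitors and pericytes, had 193, 199 and 195 CPM in the Prdm16 libraries, against 555, 566 and 543 CPM in the puro libraries. Every Prdm16 library was below every puro library, and the gene was 2.84-fold lower (log2 fold change −1.50 ± 0.03, adjusted p = 1.44e-11). Per kilobase of its longest coding transcript, Pdgfra averaged 27.6 and Pdgfrb 36.0 CPM per kb in the Prdm16 group, against 29.1 and 102 CPM per kb in the puro group. The levels of the 2 receptors per length were thus closer to each other in the Prdm16 libraries, through the lower level of Pdgfrb.

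Ly6a, the gene of SCA-1, was the most abundant of the 10 in both groups per transcript length. It had 1012, 962 and 990.0 CPM in the Prdm16 libraries, against 385, 366 and 377 CPM in the puro libraries. The groups did not overlap, and the gene was 2.63-fold higher (log2 fold change 1.39 ± 0.04, adjusted p = 4.05e-11). Ly6a belongs to a cluster of related genes, and 91 of the 906 words of 50 bases in its transcript also occur in transcripts of 4 other genes, Ly6c1 among them. The sources used here do not give the authors' treatment of such reads, and a part of its count may belong to relatives. In gene order on GRCm38.p6, its nearest tested neighbours were Ly6e (log2 fold change 0.25 ± 0.04) and Ly6c1 (2.42 ± 0.05), which also rose. This was not particular to Ly6a, as both nearest tested neighbours of Pdgfrb and both of Cd34 fell with them. Beside F3, A730020M07Rik fell and Abcd3 did not pass.

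Cd34, a sialomucin of progenitors and endothelium, had 40, 29 and 24 counts in the Prdm16 libraries, against 524, 542 and 559 counts in the puro libraries. This is 1.14, 1.002 and 0.719 CPM in the Prdm16 libraries, against 16.9, 15.5 and 16.7 CPM in the puro libraries. Every Prdm16 library lay far below every puro library. The log2 fold change was −4.10 ± 0.13 (adjusted p = 1.63e-10), and 3.31% of all tested genes had a change of larger size. SCA-1 and CD34, which are used together to sort these cells, thus went in opposite directions at the RNA level.

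Thy1, the GPI-anchored antigen CD90 of mesenchymal cells and T cells, was low in both groups and, in 2 of the 3 Prdm16 libraries, below the limit set by 3 counts. It had 1, 1 and 5 counts in the Prdm16 libraries, against 18, 20 and 15 counts in the puro libraries. The groups did not overlap, and the log2 fold change was −2.83 ± 0.48 (adjusted p = 0.000238). Prdm16 replicate 3 held 5 of the 7 counts of its group, and without it the log2 fold change was −3.94 (adjusted p = 0.000144). Thy1 was not tested where a level of 1 CPM in 3 libraries was required.

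The early markers diverged in level as well as in response. Cd24a, the gene of the heat stable antigen CD24, had 143, 163 and 167 CPM in the Prdm16 libraries, against 6.19, 6.31 and 5.90 CPM in the puro libraries. The 3 Prdm16 libraries lay far above the puro libraries, with 5030, 4728 and 5588 counts against 192, 220 and 198. Cd24a was 25.7-fold higher (log2 fold change 4.68 ± 0.07, adjusted p = 1.38e-12), and 2.50% of tested genes had a change of larger size. Of the words of 50 bases in its transcript 3.90% (69 of 1767) also occur in transcripts of Gm6212. Leaving out each library in turn gave log2 fold changes of 4.64 to 4.76.

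Dpp4 and Pi16, the markers that define the interstitial subset, were barely read. Dpp4 had 1, 3 and 2 counts in the Prdm16 libraries, against 2, 4 and 7 in the puro libraries, and the counts overlapped. The ratio of its scaled counts, Prdm16 over puro, was 0.471, with an exact 95% binomial counting interval from 0.147 to 1.33. Pi16, a CAP-domain protein of fibroblasts, had 7, 4 and 2 counts in the Prdm16 libraries, against 2, 10 and 5 in the puro libraries. Its ratio was 0.780, with an interval from 0.348 to 1.70. A difference between the groups was not detectable for either gene at this depth, and with no filter on low counts the adjusted p-values were 0.260 for Dpp4 and 0.667 for Pi16. These intervals cover counting error only.

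F3 encodes tissue factor, the membrane receptor of coagulation factor VII and the surface protein CD142. It had 27.2, 26.3 and 28.2 CPM in the Prdm16 libraries, against 242, 249.6 and 241 CPM in the puro libraries. The groups were far apart, with 762 to 959 counts in the Prdm16 libraries, against 7507 to 8706 in the puro libraries. F3 was 8.96-fold lower (log2 fold change −3.16 ± 0.04, adjusted p = 5.15e-13).

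Cd81, a tetraspanin of the plasma membrane, had 276, 258 and 267 CPM in the Prdm16 libraries, against 183, 176 and 191 CPM in the puro libraries. The groups did not overlap. The rise was the smallest of the 3, at 1.46-fold (log2 fold change 0.54 ± 0.04, adjusted p = 3.42e-07), and 38.3% of tested genes had a change of larger size.

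**Figure D2:**
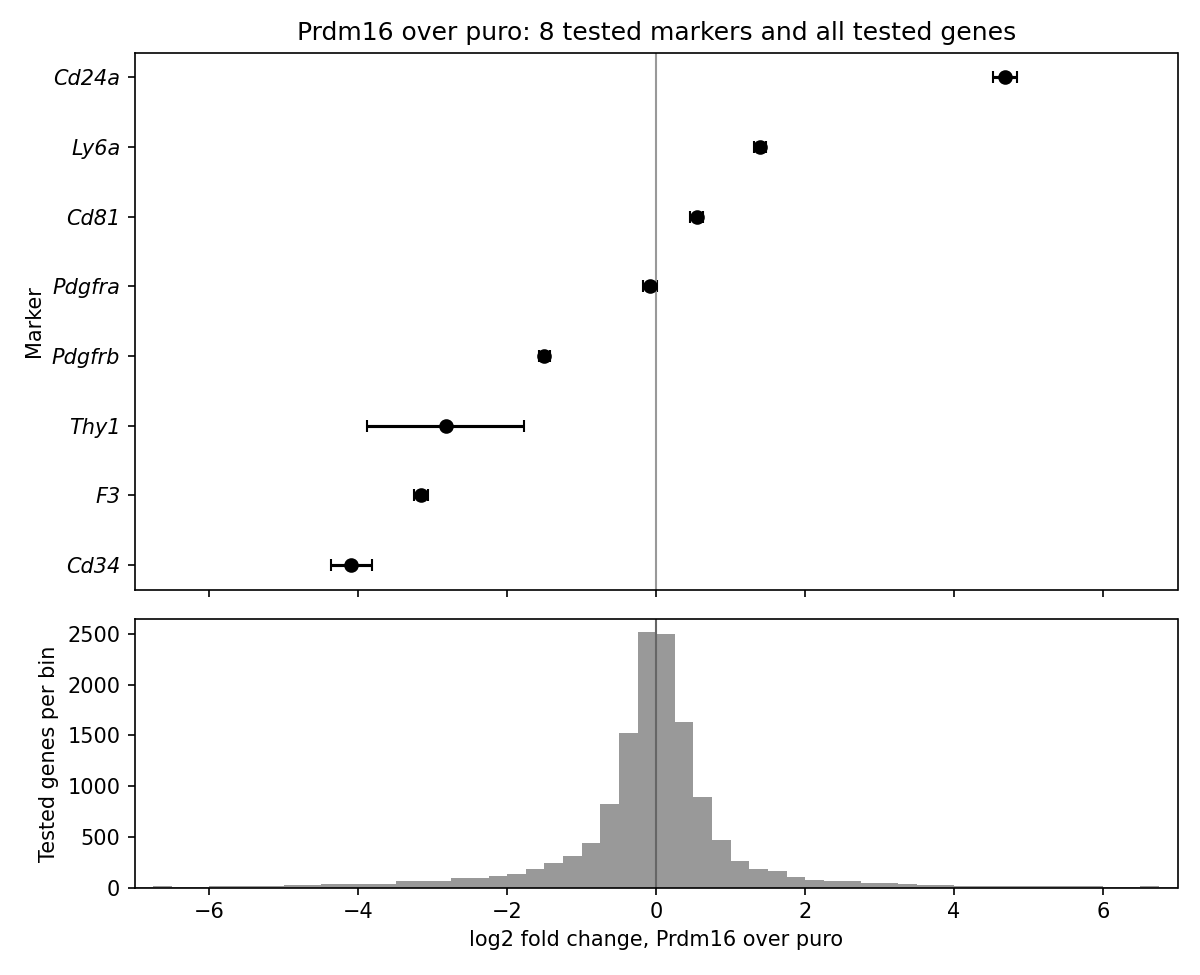
Log2 fold change of the 8 tested markers, Prdm16 over puro, with 95% intervals (upper panel), above the number of tested genes per bin of 0.25 on the same axis (lower panel; 91 genes beyond 7 in size are not drawn). Cd24a at 4.68 and Cd34 at −4.10 lie in the tails of the distribution of all genes, and Pdgfra at −0.08 near its centre.

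Promoter windows of 300 bases, from 250 before to 50 after the gene start, were found in RefSeq (GRCm38.p6) for 6 of the 10 markers: Cd34, Dpp4, F3, Pdgfra, Cd81 and Pi16. Those of F3 and Cd81 are printed because both hold more CpG than the median window while the genes moved in opposite directions. Cd81 was chosen for this after its values were seen. Capitals mark matches, on either strand, of the motif TATAAA, of the motif CCAAT, of the motif GGGCGG, of the motif GGAATG or of the motif TGACTCA, for which the motif TGAGTCA is the same site on the other strand. None of the matches in these windows overlapped another. The F3 window lies at chr3:121723287-121723586 and the Cd81 window at chr7:143052500-143052799, both on the plus strand.
F3: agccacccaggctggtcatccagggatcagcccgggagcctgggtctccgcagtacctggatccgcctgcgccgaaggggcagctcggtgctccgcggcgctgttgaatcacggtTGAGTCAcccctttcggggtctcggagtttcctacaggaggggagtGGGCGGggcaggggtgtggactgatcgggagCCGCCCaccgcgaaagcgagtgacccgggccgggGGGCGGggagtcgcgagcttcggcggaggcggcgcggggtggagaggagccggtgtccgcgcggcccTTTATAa
Cd81: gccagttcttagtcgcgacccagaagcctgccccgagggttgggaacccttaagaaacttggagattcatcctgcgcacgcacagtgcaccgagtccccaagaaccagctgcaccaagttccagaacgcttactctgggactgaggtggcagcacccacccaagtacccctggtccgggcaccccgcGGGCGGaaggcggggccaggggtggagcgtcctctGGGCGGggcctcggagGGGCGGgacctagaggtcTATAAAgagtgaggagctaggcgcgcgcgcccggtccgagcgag
The F3 window held 32 CpG and the Cd81 window 23, beside a median of 7 over 32851 windows. Of all windows, 8.56% held more CpG than that of F3 and 20.0% more than that of Cd81. Each had 3 matches of GGGCGG and 1 of TATAAA, and F3 had also 1 of TGACTCA. Both TATAAA matches lay after the gene start, 43 bases past it in F3, on the other strand, and 6 bases past it in Cd81. At least 1 match of GGGCGG was in 35.7% of all windows, of TATAAA in 13.6%, and of TGACTCA in 5.20%. The Cd34 window, of a gene that fell, held 7 CpG, and the Pdgfra window, of the gene that did not pass, held 5. Neither had a match of these motifs.

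The order of the markers, taken as CPM per kilobase of the longest coding transcript, changed between the groups. In the Prdm16 libraries Ly6a averaged 1035 ± 26.3 CPM per kb, Cd81 174 ± 5.85, Cd24a 86.9 ± 7.24, Pdgfrb 36.0 ± 0.571, Pdgfra 27.6 ± 0.971, F3 14.6 ± 0.507 and Cd34 0.373 ± 0.0834 (SD, n = 3). Each of these 7 was separated from the next, and Thy1, Pi16 and Dpp4 followed with overlapping ranges. In the puro libraries Ly6a averaged 394 ± 9.63 CPM per kb, F3 130.5 ± 2.45, Cd81 119 ± 5.01, Pdgfrb 102 ± 2.14, Pdgfra 29.1 ± 1.4, Cd34 6.41 ± 0.285, Cd24a 3.38 ± 0.115 and Thy1 0.308 ± 0.0433 (SD, n = 3). Neighbours among these 8 did not overlap, while Pi16 and Dpp4, at the end, did. Cd24a thus stood in place 3 of 10 in the Prdm16 group, against place 7 in the puro group, and F3 in place 6 in the Prdm16 group, against place 2 in the puro group. Lengths taken over all exons of a gene gave the same order in both groups.

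**Figure D3:**
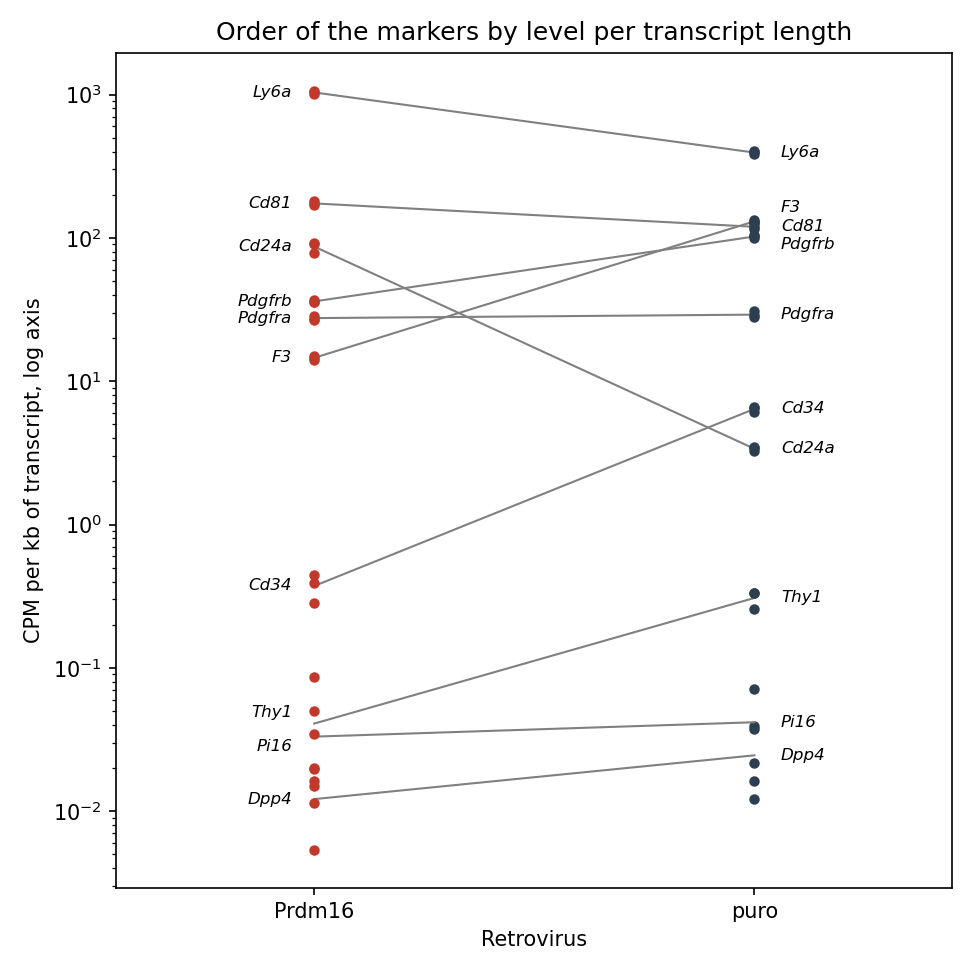
Level of the 10 markers per transcript length, in CPM per kb on a log axis, in the 3 Prdm16 libraries (left) and the 3 puro libraries (right), with a line between the group means. The lines of Cd24a and F3 cross, with Cd24a at 86.9 and F3 at 14.6 in the Prdm16 group, against 3.38 and 130.5 in the puro group.

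Other genes known from the F3-positive subset were lower for 5 and higher for 2 of 7 tested, beside 38.0% lower and 37.5% higher of all tested genes. Their median log2 fold change was −2.15, beside −0.01 over all tested genes. Rspo2, a secreted enhancer of Wnt signalling, had 35.8 ± 1.60 CPM in the Prdm16 libraries, against 343 ± 21.3 CPM in the puro libraries (SD, n = 3), with a log2 fold change of −3.26 ± 0.06 and an adjusted p of 2.12e-12. The fall of F3 had a log2 fold change of −3.16. Fmo2, a flavin monooxygenase, had 4, 4 and 4 counts in the Prdm16 libraries, against 256, 295 and 213 in the puro libraries. The log2 fold changes of Fmo2 and of Igfbp3, a binding protein of insulin-like growth factors, were −5.92 ± 0.24 and −5.77 ± 0.22. The cholesterol transporter gene Abcg1 fell by less, at −1.77 ± 0.08. The rises, in genes chosen once the values were known, were those of the secreted growth factor Clec11a (1.90 ± 0.27) and the matrix Gla protein gene Mgp (1.08 ± 0.08). Gdf10, Meox2 and Vit, at 13 counts or fewer per group, did not enter the test.

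Other genes known from the early subset divided into 4 higher and 3 lower of 7 tested, beside 37.5% higher and 38.0% lower of all tested genes, with a median of 1.03. Ly6c1, a GPI-anchored relative of Ly6a, had 238 ± 14.7 CPM in the Prdm16 libraries, against 44.5 ± 2.17 CPM in the puro libraries (SD, n = 3), with a log2 fold change of 2.42 ± 0.05 and an adjusted p of 1.69e-11. The transcription factor Creb5 and the guidance protein Sema3c rose by 1.59 ± 0.06 and 1.03 ± 0.06 on the log2 scale. Fbn1, the gene of the microfibril protein fibrillin-1, went the other way, at −1.52 ± 0.04. Chosen after their values were seen, the complement regulator gene Cd55 had 188 counts over the Prdm16 group, against 8 over the puro group (log2 fold change 4.52 ± 0.30), and Dact2, a modulator of Wnt and TGF-beta signalling, had 33 against 480 (−3.82 ± 0.23). Wnt2, Bmp7 and Efhd1 were too low to be tested.

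Genes of the committed subset were 6 higher and 6 lower of 12 tested, with a median of −0.23. The division was even, as over all tested genes (37.5% higher and 38.0% lower). All 12 were called, beside 75.6% of all tested genes. Cd36, a fatty acid transporter, and the basement membrane collagen gene Col15a1 rose, with log2 fold changes of 4.36 ± 0.10 and 2.27 ± 0.19. The gamma-glutamyl transferase family gene Ggt5 had 2.07 ± 0.208 CPM in the Prdm16 libraries, against 19.8 ± 1.31 CPM in the puro libraries (SD, n = 3; adjusted p = 1.46e-10). Lpl, the lipoprotein lipase gene, fell as well, with −2.57 ± 0.04. Icam1, the surface protein that defines the subset, was chosen after its values were seen. It had 136 counts over the Prdm16 group, against 81 over the puro group (log2 fold change 0.77 ± 0.21, adjusted p = 0.00566). Dlk1, a preadipocyte surface protein also chosen so, had 152 against 593 counts (−1.93 ± 0.19). Among adipocyte genes of the list, chosen in the same way, Fabp4 (2.26 ± 0.08) and Pparg (0.46 ± 0.04) rose, while Plin2 fell (−0.91 ± 0.04).

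**Figure D4:**
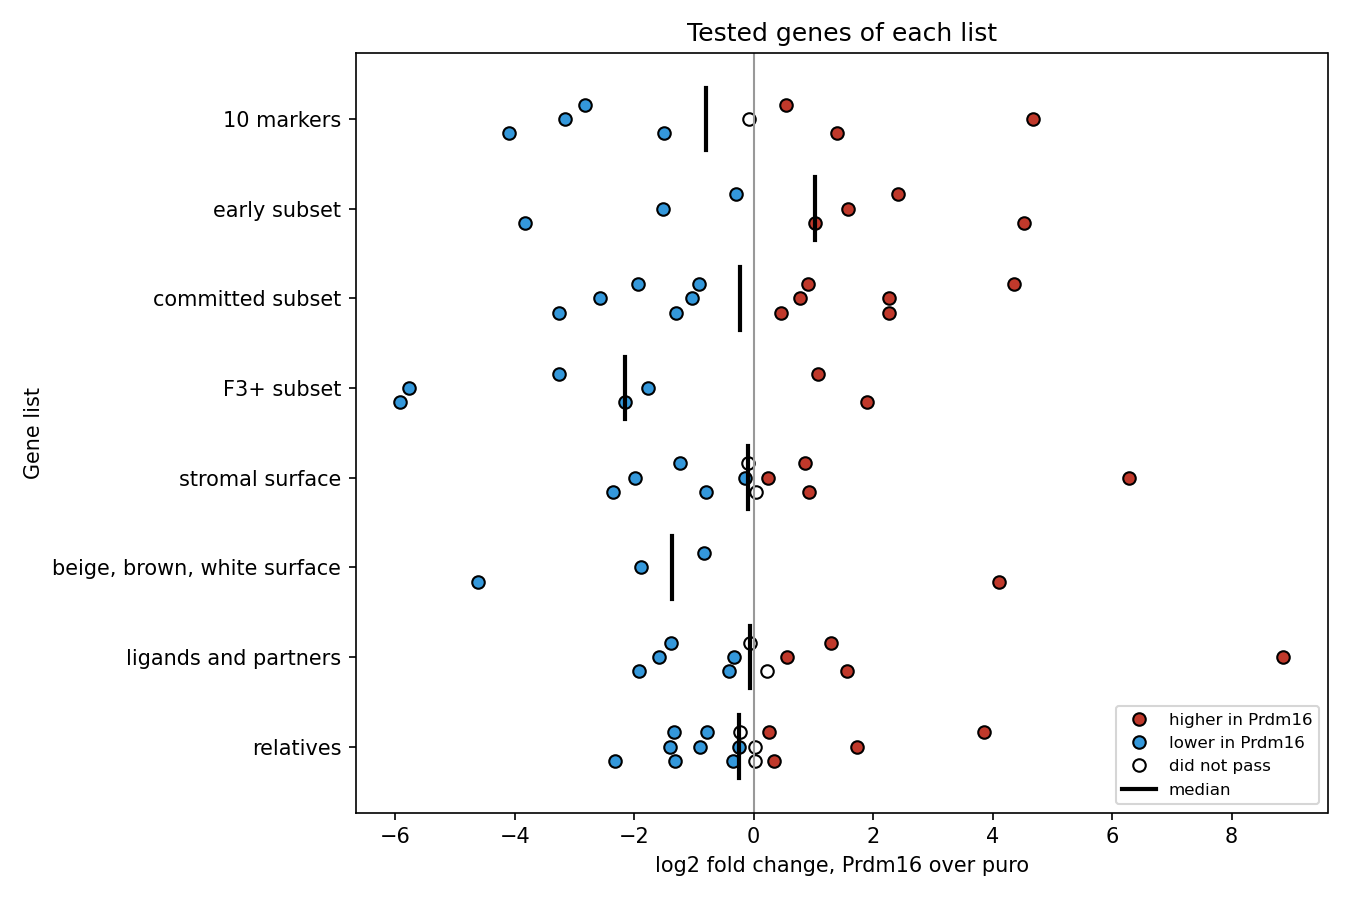
Log2 fold change, Prdm16 over puro, of each tested gene of the 10 markers and of 7 companion lists, coloured by whether the gene was called higher, lower or not, with a bar at the median of each list. The F3-positive list has its median at −2.15 and the early list at 1.03, and every list has genes on either side of 0.

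Surface proteins used elsewhere to define mesenchymal stromal cells moved in both directions, with 4 higher, 5 lower and 2 not passing of 11 tested (median −0.10). The called share is near the background of 75.6%, and no pattern of the list is read from it. Nt5e, the gene of the ectonucleotidase CD73, had 4045, 3576 and 4205 counts in the Prdm16 libraries, against 60, 52 and 42 in the puro libraries. It was 78.2-fold higher (log2 fold change 6.29 ± 0.09, adjusted p = 7.32e-13), a larger rise than that of any of the 10 markers. The adhesion protein Alcam and the tetraspanin Cd9 rose by 0.93 ± 0.11 and 0.85 ± 0.05 on the log2 scale. Vcam1, the adhesion molecule VCAM1, fell to 204 ± 3.05 CPM in the Prdm16 libraries, against 479 ± 2.23 CPM in the puro libraries (SD, n = 3; log2 fold change −1.23 ± 0.03). Surface markers of beige, brown and white adipocytes were 1 higher and 3 lower of 4 tested (median −1.37), beside 37.5% higher and 38.0% lower of all tested genes. Tnfrsf9, the gene of the beige marker CD137, had 32, 16 and 27 counts in the Prdm16 libraries, against 609, 664 and 596 in the puro libraries (log2 fold change −4.61 ± 0.13). P2rx5, a purinergic receptor of brown adipocytes, fell as well (−1.89 ± 0.09). Of the others, chosen after their values were seen, Tmem26 had −0.84 ± 0.22 and Slc36a2, an amino acid transporter of brown fat, 4.10 ± 0.41 with 90 counts over the Prdm16 group, against 5 over the puro group. Slc7a10, a white adipocyte marker, was at 0 in all 6 libraries.

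Ligands and partners of the markers were 4 higher, 5 lower and 2 not passing of 11 tested (median −0.06), a called share that is also near the 75.6% of all tested genes. F2rl1 encodes PAR2, the receptor through which the complex of tissue factor and factor VII signals to cells. It had 2002, 1462 and 1762 counts in the Prdm16 libraries, against 4, 4 and 3 in the puro libraries. The log2 fold change was 8.87 ± 0.13 (adjusted p = 7.32e-13), opposite in direction to F3. Tfpi, the inhibitor of the same complex, fell with F3, to 35.8 ± 0.354 CPM in the Prdm16 libraries, against 135 ± 5.47 CPM in the puro libraries (SD, n = 3; log2 fold change −1.91 ± 0.04). The factors themselves, F7 with 0 counts over the Prdm16 group against 10 over the puro group and F10 with 0 in all libraries, were too low to be tested. Among the PDGF ligands, of which Pdgfa, Pdgfb and Pdgfc are named after their values were seen, Pdgfd and Pdgfa rose by 1.56 ± 0.10 and 1.30 ± 0.13 on the log2 scale, and Pdgfb and Pdgfc fell, at −1.38 ± 0.11 and −0.41 ± 0.09. The ligands of PDGFRβ thus went in opposite directions: Pdgfb had 4.96 CPM in the Prdm16 group, against 12.9 CPM in the puro group, and Pdgfd had 9.05 CPM in the Prdm16 group, against 3.05 CPM in the puro group. Of the listed CD81 partners, Ifitm3, an antiviral membrane protein of a family that associates with CD81, fell (−1.58 ± 0.04), as did Ptgfrn (−0.34 ± 0.04), and Igsf8 rose by 0.57 ± 0.12. The last 2 were chosen after their values were seen.

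The genes most like Cd24a over the 6 libraries, by the Euclidean distance of centred log2 CPM, were the protocadherin Pcdh17 (distance 0.262), the exchange factor gene Ngef (0.304) and the sorting receptor gene Sorcs1 (0.340). Their log2 fold changes were 4.54 ± 0.05, 4.90 ± 0.13 and 4.92 ± 0.06. The genes most like F3 were the collagen prolyl hydroxylase subunit P4ha3 (0.0768), the extracellular superoxide dismutase Sod3 (0.0932) and the growth factor Ptn (0.114), with −3.20 ± 0.08, −3.22 ± 0.06 and −3.08 ± 0.04. With 6 libraries in 2 groups, likeness means mostly a similar difference between the groups.

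Marker lists of the cell types that an inguinal stromal-vascular preparation can hold were read in the same libraries, and their part in the results above was not tested. The stromal list had counts for 8 of 8 genes, with a summed level of 3027 to 3357 CPM in the Prdm16 libraries, against 11964 to 13118 CPM in the puro libraries. It holds Pdgfra and Fbn1, which are also counted above. Of its genes 1 was higher, 6 were lower and 1 did not pass, beside 37.5% higher and 38.0% lower of all tested genes. The collagen genes Col3a1 and Col1a2 led by the mean of both groups, at 1880 and 189 CPM in the Prdm16 group, against 5007 and 3429 CPM in the puro group, and in the Prdm16 group Vim and Fbn1 stood above Col1a2. The proteoglycan genes Dcn and Lum, which define fibroblasts, had few counts, at 4.13 and 0.518 CPM in the Prdm16 group, against 4.90 and 0.0807 CPM in the puro group. Dcn was called lower (log2 fold change −0.25 ± 0.09, edgeR adjusted p = 0.0330). Among other alternatives, it did not pass under DESeq2 (adjusted p = 0.155), with the replicate block, or with any single Prdm16 library left out. The log2 fold change of Lum was 2.64 ± 0.45, and 3.41 without puro replicate 3. Like Dpp4, Pi16 and Thy1, these genes were thus low in cells labelled as stromal-vascular. The epithelial list had counts for 7 of 7 genes and summed to 26.7 to 28.2 CPM in the Prdm16 libraries, against 0.258 to 0.328 CPM in the puro libraries. Its leading genes were Krt18 and Cdh1, and Esrp1 was at 0 in the puro libraries. The 4 tested genes of the list were all higher, beside 37.5% of all tested genes. Krt8, Krt14 and Krt5 were too low to be tested. They had 4, 2 and 3 counts over the Prdm16 group, against 4, 1 and 3 over the puro group. CD24 and tissue factor are also made by epithelia, and Cd24a moved in the direction of the tested genes of this list while F3 moved against them.

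The mesothelial list had counts for 4 of 5 genes and summed to 89.6 to 95.04 CPM in the Prdm16 libraries, against 7.06 to 7.45 CPM in the puro libraries. Nearly all of this was Msln, while Wt1 had 1 count over the Prdm16 group, against 75 over the puro group, and Upk1b was at 0. The mural list had counts for 6 of 7 genes and summed to 268 to 290 CPM in the Prdm16 libraries, against 163 to 188 CPM in the puro libraries, with Kcnj8 at 0. Of its 5 tested genes 2 were higher and 3 lower, beside 37.5% higher and 38.0% lower of all tested genes. Notch3 and Mcam led by the mean of both groups and rose, with log2 fold changes of 0.69 ± 0.06 and 3.16 ± 0.05. Cspg4, the pericyte proteoglycan NG2, chosen after its values were seen, fell to 2.01 CPM in the Prdm16 group, against 31.3 CPM in the puro group, where it stood above Mcam.

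The endothelial list had counts for 6 of 7 genes and summed to 9.37 to 12.2 CPM in the Prdm16 libraries, against 3.32 to 3.78 CPM in the puro libraries. Its 2 leading genes by the mean of both groups went in opposite directions. Tek, which made up most of the sum in the Prdm16 group, had 10.2 CPM in the Prdm16 group, against 1.19 CPM in the puro group, and Vwf had 0.298 CPM in the Prdm16 group, against 1.78 CPM in the puro group. Kdr, the third tested gene, did not pass. Cdh5 was at 0 and Pecam1 had 10 counts over the Prdm16 group, against 16 over the puro group. The leukocyte list had counts for 6 of 8 genes and summed to 4.85 to 4.89 CPM in the Prdm16 libraries, against 4.90 to 5.88 CPM in the puro libraries. The leading genes by the mean of both groups were Cd68, which did not pass (450 counts over the Prdm16 group, against 384 over the puro group), and Lyz2, which had 3 counts over the Prdm16 group, against 146 over the puro group (ratio of scaled counts 0.0209, with an exact 95% counting interval from 0.00427 to 0.0624). Emr1, which encodes the macrophage protein F4/80, and Cd3e were at 0, and Ptprc, the pan-leukocyte CD45 gene, had 7 counts over the Prdm16 group, against 0 over the puro group. The adipocyte list had counts for 6 of 6 genes, led by Cidec and Adipoq, and summed to 5.88 to 6.59 CPM in the Prdm16 libraries, against 0.387 to 0.596 CPM in the puro libraries. Only these 2 genes were tested, and both were higher, beside 37.5% of all tested genes. Plin1, Lep, Ucp1 and Cidea had 9, 5, 14 and 7 counts over the Prdm16 group, against 10, 0, 1 and 2 over the puro group.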

How the data were processed

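The data are whole-number counts per gene symbol, deposited by the authors without normalization in a table of 24197 genes and 6 libraries. The submitters' processing notes name STAR, featureCounts, Subread and the build mm9, with no role, order or version. Per the labels' protocols, a PureLink kit was used with Trizol for extraction and a TruSeq RNA kit for the libraries. The sources used here do not give the strand setting of the counting, and antisense or overlapping genes may therefore share reads.

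For testing with edgeR 4.0.16 (R 4.3.3), filterByExpr kept 13805 genes, libraries were scaled by TMM, and groups taken from the sample titles were compared with a two-sided quasi-likelihood test, called at an adjusted p under 0.05. The fit was run on simulated counts in which few genes changed. That setting cannot test the scaling or the calls of data in which 75.6% of tested genes are called. The members, lists and tests were chosen with earlier results of these data known. All 10 markers were named, and from each companion list up to 4 called genes of largest change with groups that did not overlap and at least 5 CPM in the higher group. From each cell type list the 2 most abundant genes by the mean of both groups were named; 1 of these lists is not reported here. Replicate libraries differed by more than sampling noise (chi-square of 2.08 to 8.85 per gene, where noise gives 1). In the puro group the value was 2.08 for replicates 1 and 2. Puro replicate 3 gave 8.85 against replicate 1 and 7.99 against replicate 2. The pairs of the Prdm16 group gave 3.67 to 8.01. Total depth was 28169059 to 35798201 counts per library. Transcript lengths, shared words and gene order came from GENCODE M21 and RefSeq, both on GRCm38, and were matched by symbol. The alternatives tried were upper-quartile and RLE scaling, no filter, a filter of 1 CPM in 3 libraries, DESeq2 1.42.0, limma-voom (limma 3.58.1), a replicate block, Prdm16 left out, chromosome medians removed, an adjusted p of 0.01, and leaving out each library.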

Additional observations from a re-analysis of the deposited data

How the results depend on the processing

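The counts of called markers (3 higher, 4 lower) were 3 higher under all 16 alternatives and from 3 to 5 lower. The lowest came from the filter of 1 CPM in 3 libraries, which left Thy1 untested, and the highest from leaving out puro replicate 3 or removing chromosome medians, which called Pdgfra. The same filter left Slc36a2 untested, so that 0 beige, brown and white surface genes were called higher in place of 1. All other counts of the lists stayed within 1.5 times. Median log2 fold changes differed between chromosomes, from −0.41 on chromosome 18 to 0.49 on chromosome 14. The chromosomes of Pdgfrb, Ly6a and F3 had medians of −0.41, −0.38 and −0.20. With chromosome medians removed, Pdgfrb had a log2 fold change of −1.09, Ly6a of 1.77 and F3 of −2.96. Over all tested genes, 4605 to 5683 were called higher and 4587 to 5466 lower. The replicate block called 5017 higher and 5072 lower, against 5178 and 5252 without it. Same-numbered libraries had correlations of their deviations of −0.16, 0.10 and −0.07, so the numbers were not taken as pairs. Depth limits Dpp4 and Pi16, and Thy1 in the Prdm16 group.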

Other observations

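Relatives of the 10 markers, a list that stands outside the comparisons of progenitor subsets, were 4 higher, 8 lower and 3 not passing of 15 tested, a called share near the 75.6% of all tested genes, with a median log2 fold change of −0.24. Crispld1, a secreted protein of the same CAP superfamily as PI16, had 192, 221 and 285 counts in the Prdm16 libraries, against 23, 8 and 18 in the puro libraries (log2 fold change 3.85 ± 0.28, edgeR adjusted p = 2.50e-07), while its relative Glipr1 fell (−1.40 ± 0.11). Pdgfrl, a PDGF receptor-like secreted protein, had 10.6 ± 0.723 CPM in the Prdm16 libraries, against 52.9 ± 1.31 CPM in the puro libraries (SD, n = 3; log2 fold change −2.32 ± 0.06), a fall as in Pdgfrb and of larger size. Podxl, the podocalyxin gene of the CD34 family, rose by 1.73 ± 0.11 on the log2 scale, where Cd34 fell. Fap, the membrane peptidase closest to DPP4 and its neighbour in gene order, was chosen after its values were seen; it had 170 counts over the Prdm16 group, against 298 over the puro group (−0.78 ± 0.14, adjusted p = 0.000435).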
